A study of Arabidopsis thaliana with 24 samples.

Results

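The genes described here belong to the salicylic acid defence pathway of Arabidopsis thaliana. They were followed in seeds after 0, 6, 24 and 48 h of water uptake in wild-type Col and in ref6c, a mutant of REF6 in the Col ecotype. REF6 takes the repressive methyl mark H3K27me3 off histones. Transcripts were measured by RNA sequencing in 3 libraries for each of the 8 combinations of genotype and time, 24 in all. The labels give no further treatment and do not say what kind of lesion ref6c carries. They state that seeds had been stored after harvest before being sown on MS medium and germinated under long days. A growth protocol that stands with all samples names ref6-1;REF6-HA seeds, so the seed line of each group rests on the sample names. The 10 genes were taken by locus from the deposited table of 23826 genes: PR1, PR2, PR5, WRKY70, EDS1, PAD4, SID2, EDS5, NPR1 and NIMIN1. They were chosen because PR1 was high in ref6c at 48 h, so the genotype comparison at 48 h and the ref6c step from 24 to 48 h are given as values only. The table held rows for 8 of the 10, and PR2 and PR5 are not analysed here.

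Salicylic acid is a plant hormone best known from leaves that meet biotrophic pathogens. In Arabidopsis most of it is made through isochorismate synthase in the chloroplast, and the lipase-like proteins EDS1 and PAD4 act upstream of its accumulation. The hormone is perceived by NPR proteins, which work with TGA transcription factors to switch on pathogenesis-related genes, and PR1 is the transcript most often used to read the response.

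Levels are given in TPM, a transcript share in which counts are divided by gene length and by library total. Differences are given ± SE on log2(TPM + 1), which understates changes at low TPM. Adjusted p-values come from limma, fitted to all 18481 genes that reached 1 TPM in at least 3 libraries, and a gene was called at an adjusted p under 0.05. All 8 genes with rows passed this filter. EDS1, PAD4 and WRKY70 passed only through the Col libraries at 48 h, so they had to differ there, and their Col steps from 24 to 48 h are given as values with no test. Libraries held 16625456 to 19250051 recovered reads, and 3 reads of PR1 corresponded to 0.373 TPM. Nothing states that the 3 libraries of a group came from separate seed batches, so p-values measure the spread between these libraries, which may be technical. REF6 itself was lower in ref6c at 6 h, at 14.4 TPM against 35.8 in Col (log2 difference -1.26 ± 0.12, limma adjusted p = 6.5e-08). In seed samples made of several tissues, fewer cells of a type and less RNA per cell cannot be told apart.

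PR1 (AT2G14610, chr2:6241640-6242541, minus strand, TAIR10.1) encodes a secreted pathogenesis-related protein. The stretch from 750 to 501 bases before its annotated start holds 4 motif matches that a search found upstream, and it is shown for these. Capitals mark TTGAC, the core of the W-box that WRKY factors bind, and TGACG, the core of TGA-factor sites, on either strand. The search read both strands, and overlapping matches of the motifs were counted for each.
PR1 upstream stretch, chr2:6243042-6243291, minus strand: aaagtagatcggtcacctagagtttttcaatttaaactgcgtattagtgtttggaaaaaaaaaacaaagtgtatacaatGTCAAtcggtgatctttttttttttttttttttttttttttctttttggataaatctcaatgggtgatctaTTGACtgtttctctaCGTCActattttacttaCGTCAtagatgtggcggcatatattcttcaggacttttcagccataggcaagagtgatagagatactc

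In the window of 1000 bases before PR1, leaving out the nearest 250, TTGAC lay 816, 671, 600, 468 and 442 bases from the start and TGACG lay 585 and 568 bases from it. Such matches are common: 88.1% of 27431 gene promoters of 1000 bases held TTGAC and 54.1% held TGACG. The letters CTCTGTTT, CTCTGTTC, CTCTGCTT and CTCTGCTC, the motif known for REF6 binding, had no match in the same stretch of PR1, and 21.9% of promoters held at least 1 of them. Among the 10 genes that motif was in 3 windows of 1000 bases, those of EDS1 at 151 bases, PAD4 at 253 and NPR1 at 864. TTGAC was in 9 of the 10 windows and TGACG in 6. The matches are descriptions of sequence, and binding was not measured in these libraries.

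SID2 and WRKY70 had their highest levels in Col at 48 h, described below, and their proximal promoters are shown with the same capitals.
SID2 proximal promoter, chr1:28070045-28070294, plus strand: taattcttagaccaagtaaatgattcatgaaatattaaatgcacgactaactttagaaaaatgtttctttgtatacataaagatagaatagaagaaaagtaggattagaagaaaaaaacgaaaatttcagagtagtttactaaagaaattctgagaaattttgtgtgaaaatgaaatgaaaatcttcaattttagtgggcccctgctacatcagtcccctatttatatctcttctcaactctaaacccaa
WRKY70 proximal promoter, chr3:20910624-20910873, minus strand: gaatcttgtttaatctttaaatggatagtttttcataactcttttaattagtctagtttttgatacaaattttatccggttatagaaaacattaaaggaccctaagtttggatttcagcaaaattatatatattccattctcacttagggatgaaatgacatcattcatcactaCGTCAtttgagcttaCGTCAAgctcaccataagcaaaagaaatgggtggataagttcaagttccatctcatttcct
The 250 bases of SID2 held neither motif, and those of WRKY70 held TGACG and, overlapping 1 of its matches, TTGAC. Over all promoters of 250 bases, 44.9% held TTGAC and 18.6% held TGACG, against 5 and 1 of the 10 genes.

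The output gene PR1 and the synthesis gene SID2 differed between the genotypes in opposite directions at 24 h. PR1 was higher in ref6c at 24 h, by 2.48-fold, while SID2 was lower by 2.63-fold. In Col, SID2 rose from 24 to 48 h while PR1 fell, and EDS1, PAD4 and WRKY70 reached 1 TPM in the Col libraries at 48 h only. The receptor gene NPR1 was called in none of the genotype comparisons at 0, 6 and 24 h, with log2 differences of -0.08, 0.05 and -0.19.

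**Figure D1:**
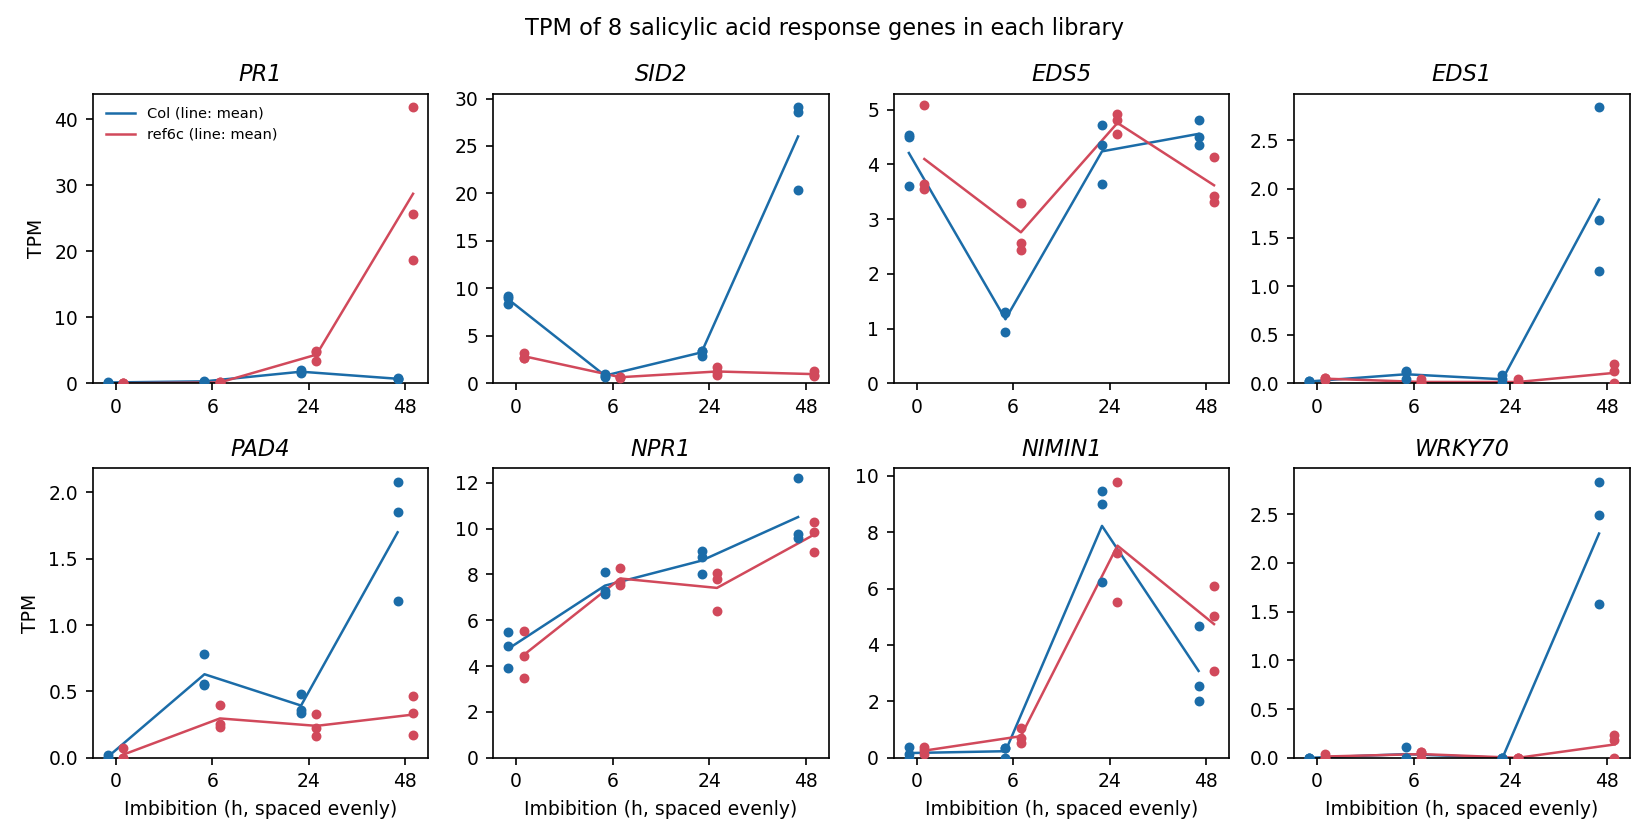
TPM of the 8 genes in each library (points, 3 a group) against imbibition time, with lines through the group means of Col and ref6c. PR1 is highest in ref6c at 48 h, at 18.7 to 41.8 TPM, whereas SID2, EDS1, PAD4 and WRKY70 are highest in Col at 48 h.

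Synthesis begins with SID2 (AT1G74710, chr1:28070295-28074177, plus strand), which the reference names EDS16 and which encodes isochorismate synthase. In Col it stood at 8.99, 9.15 and 8.35 TPM at 0 h, 0.647, 0.768 and 1.01 at 6 h, 3.45, 2.86 and 3.44 at 24 h and 28.6, 20.4 and 29.1 at 48 h. In ref6c it stood at 3.15, 2.7 and 2.69 TPM at 0 h, 0.517, 0.698 and 0.695 at 6 h, 1.66, 0.833 and 1.22 at 24 h and 0.788, 0.858 and 1.24 at 48 h. Every ref6c library lay below every Col library at 0, 24 and 48 h, and the genotypes overlapped at 6 h. The gene was lower in ref6c at 0 h (-1.36 ± 0.14, adjusted p = 1.7e-07) and at 24 h (-0.94 ± 0.14, 1e-05), and did not pass the test at 6 h (-0.14, adjusted p = 0.59 in limma). At 48 h the means were 26.0 ± 4.88 TPM in Col against 0.963 ± 0.244 in ref6c (SD, n = 3), which is 27.0-fold apart.

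The course of SID2 differed between the genotypes in both steps tested. From 0 to 6 h it fell by 2.45 on the log2 scale in Col (adjusted p = 3.8e-14) and by 1.23 in ref6c (1.2e-08), and the difference of the steps was 1.21 ± 0.19 (limma adjusted p = 0.00017). In that step the median of all genes rose by 1.235 in Col and 1.294 in ref6c. With median-of-ratios scaling, which brought those medians to 0.007 and 0, the falls of SID2 were -3.92 and -2.69. From 6 to 24 h SID2 rose by 1.23 ± 0.14 in Col (2.7e-08) and by 0.44 ± 0.14 in ref6c (0.0072), with a difference of -0.8 ± 0.19 (0.0055, limma). The ref6c rise ended as a call without ref6c replicate 1 at 24 h (0.30, adjusted p = 0.068). A further fit used voom, limma with precision weights, on recovered reads, with libraries also scaled by median of ratios. With voom the differences of the steps were 1.14 (adjusted p = 0.094) and -1.11 (adjusted p = 0.090). From 24 to 48 h SID2 rose by 2.66 ± 0.14 in Col (5.2e-14).

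EDS5 (AT4G39030, chr4:18185437-18189224, plus strand) encodes the transporter that exports the isochorismate product from the chloroplast. It stood at 1.3, 0.933 and 1.28 TPM in Col at 6 h and at 2.56, 2.43 and 3.29 in ref6c, with no overlap. The difference at 6 h was 0.79 ± 0.12 (adjusted p = 4.8e-05, limma), opposite in direction to that of SID2 at 0 and 24 h. In dry seeds the libraries overlapped, at 4.21 ± 0.534 TPM in Col against 4.1 ± 0.858 in ref6c (-0.04, adjusted p = 0.94). EDS5 fell from 0 to 6 h by 1.26 in Col (1.1e-09) and by 0.43 in ref6c (0.0023), a difference of 0.83 ± 0.17 (limma adjusted p = 0.0029). It rose again from 6 to 24 h, by 1.27 ± 0.12 in Col (2.7e-09) and by 0.62 ± 0.12 in ref6c (0.0001), a difference of -0.65 ± 0.17 (0.011). At 24 h the groups overlapped at 4.24 ± 0.542 and 4.76 ± 0.188 TPM (0.14, adjusted p = 0.4), and at 48 h the means were 4.56 ± 0.229 in Col and 3.62 ± 0.443 in ref6c. EDS5 overlaps AT4G39040 on the other strand by 213 bases. The strand setting of the counting is not given in the sources used here, and AT4G39040 stood at group means of 13.2 to 201 TPM, so the EDS5 values are uncertain.

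Upstream of synthesis, EDS1 (AT3G48090, chr3:17755329-17758147, minus strand) and PAD4 (AT3G52430, chr3:19431095-19434450, plus strand) encode partner proteins of immune signalling. EDS1 stood at 1.68, 1.16 and 2.84 TPM in Col at 48 h, from 41, 29 and 69 reads, and at 0.121, 0 and 0.199 in ref6c, from 3, 0 and 5 reads. In the other 6 groups its means lay between 0.0131 and 0.0927 TPM, and no fold is given there. The Col mean at 48 h lay 1.44 above that at 24 h on the log2 scale. Its neighbouring gene AT3G48080 stood at most at 0.0422 TPM in any group mean. RR5, 279 bases away on the other side and on the same strand, had means of 3.7 TPM in Col and 0.209 in ref6c at 48 h. Whether reads from RR5 bear on the EDS1 values was not tested.

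PAD4 was detected earlier. It rose from 0 to 6 h in Col by 0.69 ± 0.11 (adjusted p = 3e-06) and in ref6c by 0.34 ± 0.11 (limma, 0.0061), both below the median rise of all genes in that step, and with voom by 3.36 and 1.65. The gene stood at 0.782, 0.559 and 0.55 TPM in Col at 6 h and at 0.398, 0.258 and 0.234 in ref6c, so that every ref6c library lay below every Col library. The difference was -0.33 ± 0.11 (adjusted p = 0.041, limma). That call ended without Col replicate 1 (-0.26, 0.18), 2 (-0.36, 0.060) or 3 (-0.36, 0.057) at 6 h, without ref6c replicate 2 (-0.31, 0.12) or 3 (-0.29, 0.14), and with voom (-1.03, 0.087). At 24 h PAD4 stood at 0.394 ± 0.0761 TPM in Col against 0.241 ± 0.0827 in ref6c, and the difference of -0.17 did not pass (adjusted p = 0.26). In Col at 48 h the gene stood at 1.85, 1.18 and 2.08 TPM, 0.94 above 24 h on the log2 scale. The ref6c libraries at 48 h held 0.338, 0.171 and 0.468 TPM, all below those of Col.

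Perception rests on NPR1 (AT1G64280, chr1:23852748-23855658, minus strand), a salicylic acid receptor and coactivator. Its levels in Col were 5.48, 4.86 and 3.92 TPM at 0 h, 7.28, 8.12 and 7.13 at 6 h, 8.74, 8.01 and 9.03 at 24 h and 9.58, 9.76 and 12.2 at 48 h. In ref6c they were 5.55, 3.5 and 4.43 TPM, then 7.54, 7.67 and 8.26, then 8.05, 6.4 and 7.79, and then 10.3, 8.96 and 9.86. The genotypes overlapped at all 4 times. The direction of NPR1 from 0 to 6 h depended on the scaling: it rose on TPM by 0.57 ± 0.13 in Col (adjusted p = 0.0002) and 0.7 ± 0.13 in ref6c (1.7e-05), and with median-of-ratios scaling it changed by -1.07 and -1.09 (limma). The step from 24 to 48 h in Col was 0.26 (adjusted p = 0.078) and passed with median-of-ratios scaling (0.30, 0.013) and voom (0.35, 0.0056).

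NIMIN1 (AT1G02450, chr1:497917-498539, minus strand) encodes a small protein that binds NPR1 and restrains its activity. At 6 h Col held 0.351, 0.354 and 0 TPM and ref6c 0.716, 1.04 and 0.541, and at 24 h the values were 8.98, 6.24 and 9.44 against 5.53, 7.27 and 9.78. NIMIN1 rose from 6 to 24 h in both genotypes, by 2.9 ± 0.23 in Col (adjusted p = 7.6e-11) and 2.25 ± 0.23 in ref6c (limma, 7.5e-09). The groups overlapped at 24 h (-0.13, adjusted p = 0.73), and at 6 h the difference of 0.52 ± 0.23 did not pass (0.13), although the ref6c libraries were all above those of Col. In Col the gene fell from 24 to 48 h by 1.21 (6.5e-05), to 2.03, 2.54 and 4.66 TPM. At 48 h ref6c stood at 3.09, 6.09 and 5.04 TPM and overlapped Col. The ref6c step from 0 to 6 h, 0.49 ± 0.23, lay at the threshold (adjusted p = 0.05). It turned to -0.17 with median-of-ratios scaling, and without single libraries it ranged from 0.38 to 0.58. It ended as a call without any library of ref6c at 0 h or replicates 1 and 2 of ref6c at 6 h, with adjusted p-values of 0.052 to 0.17, and without several libraries of other groups (0.051 to 0.056).

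WRKY70 (AT3G56400, chr3:20908711-20910623, minus strand) encodes a transcription factor placed downstream of NPR1 in salicylic acid signalling and known to restrain jasmonate responses. In Col at 48 h it stood at 2.83, 2.49 and 1.58 TPM, from 47, 42 and 26 reads. In ref6c at 48 h it stood at 0.178, 0 and 0.235 TPM, from 3, 0 and 4 reads, below every Col library. No read was counted in Col at 0 h or 24 h or in ref6c at 24 h. The Col mean at 48 h lay 1.7 above that at 24 h on the log2 scale.

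PR1, the output gene, followed another course. In Col it stood at 0.0889, 0.0881 and 0.169 TPM at 0 h, 0.242, 0.367 and 0.256 at 6 h, 2.07, 1.52 and 1.66 at 24 h and 0.639, 0.753 and 0.643 at 48 h. In ref6c no read was counted at 0 h, and it stood at 0, 0.12 and 0.249 TPM at 6 h, 4.8, 3.35 and 4.88 at 24 h and 18.7, 25.6 and 41.8 at 48 h. At 0 and 6 h these values rest on 0 to 3 reads per library, and no fold can be given. At 24 h, on 12 to 17 reads in Col and 28 to 39 in ref6c, all ref6c libraries lay above all Col libraries (0.95 ± 0.17, limma adjusted p = 0.00018).

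PR1 rose from 6 to 24 h in Col by 1.09 ± 0.17 (adjusted p = 7e-06) and in ref6c by 2.24 ± 0.17 (9.4e-11, limma). The difference of these steps was 1.15 ± 0.25 (0.002), and with voom it was 2.46 (adjusted p = 0.080). From 24 to 48 h PR1 fell by 0.71 in Col (limma adjusted p = 0.0012), a call that ended with voom (-1.21, 0.068). The rise in ref6c over the same interval, 2.41, is what the genes were chosen on and is given as a description. At 48 h the mean was 28.7 ± 11.8 TPM in ref6c and 0.678 ± 0.0647 in Col, 42.3-fold apart (log2 difference 4.07). The 3 ref6c libraries spread widely, and the difference was 4.33 without ref6c replicate 1 and 3.77 without replicate 3. Over the 8 groups the order of PR1 was ref6c at 48 h, ref6c at 24 h, Col at 24 h and Col at 48 h, none of which overlapped its neighbour. Below these, ref6c at 6 h overlapped both Col at 6 h and Col at 0 h, its neighbours in the order. The lowest group was ref6c at 0 h, with no read counted.

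**Figure D2:**
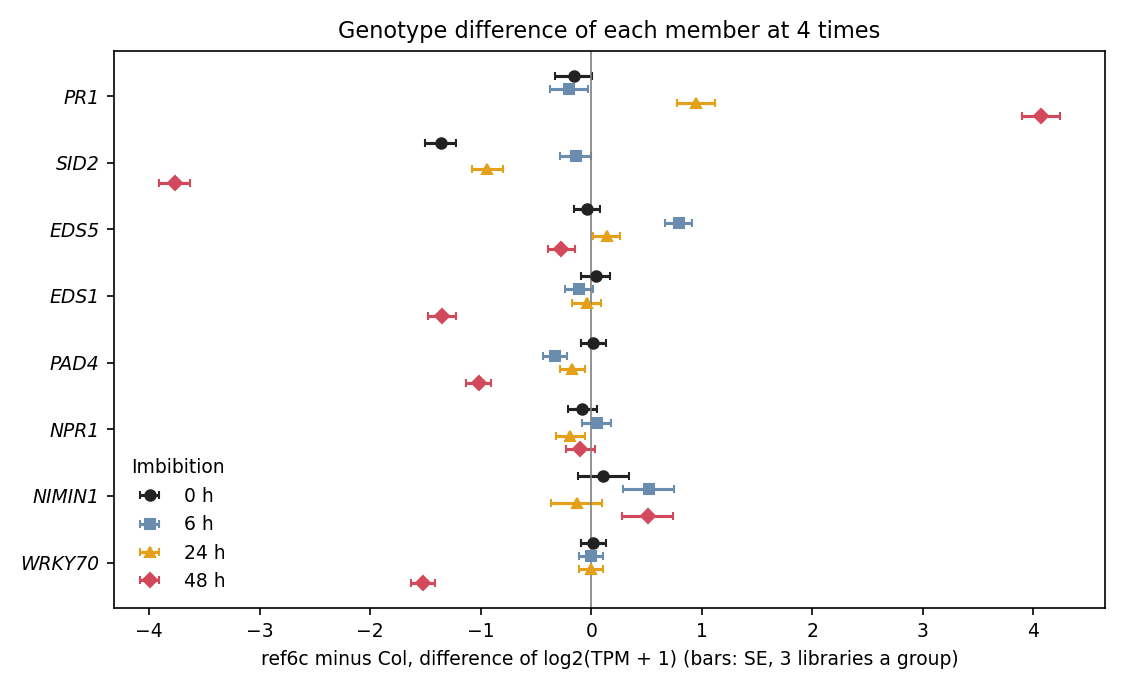
Difference of log2(TPM + 1), ref6c minus Col, for each gene at 0, 6, 24 and 48 h (points, with SE bars from the limma fit, 3 libraries a group). PR1 lies at 0.95 at 24 h and 4.07 at 48 h, and SID2 at -1.36, -0.14, -0.94 and -3.77 over the 4 times.

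Counted over the 8 genes, 1 was called between the genotypes at 0 h, SID2, where 12.7% of all tested genes were called and 10.6% were lower. At 6 h 2 were called, EDS5 higher and PAD4 lower, against 16% of all genes, 5.89% higher and 10.1% lower. At 24 h 2 were called, PR1 higher and SID2 lower, against 34.2% of all genes, 12% higher and 22.2% lower. These shares are near the background or rest on 1 or 2 genes. At 48 h 5 of 8 were past the threshold, PR1 higher and SID2, EDS1, PAD4 and WRKY70 lower, where 56.2% of all genes were (22.1% higher and 34.1% lower), and nothing is read from that count. Without Col replicate 1, 2 or 3 at 48 h it was 2, 2 and 3, since the genes carried by those libraries left the filter. The median log2 difference of the 8 genes was -0.01, -0.05, -0.08 and -0.64 at the 4 times, beside -0.08, -0.03, -0.04 and -0.05 over all tested genes.

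Of the steps in Col, 0 to 6 h called 4 of the 8 genes (84.7% of all genes), 6 to 24 h called 4, all rising (73.3% called and 38% rising among all genes), and 24 to 48 h had 6 past the threshold, 4 upward and 2 downward (63.7% called, 35.5% rising and 28.3% falling among all genes). Of the 4 upward, EDS1, PAD4 and WRKY70 passed the filter only through the Col libraries at 48 h, so nothing is read from that count, and it was 3 without any 1 of those libraries. In ref6c the step from 0 to 6 h called 5 (84.4% of all genes) and that from 6 to 24 h called 4, all rising (67.6% called and 35% rising). The ref6c count for 0 to 6 h was 3 without Col replicate 2 at 48 h. The ref6c step from 24 to 48 h had 4 past the threshold, against 54.7%. The difference of steps between the genotypes was called for 2 genes from 0 to 6 h, SID2 and EDS5 (8.05% of all genes), and for 3 from 6 to 24 h, PR1, SID2 and EDS5 (15.8%). Of the 8 genes, 5 had their highest group mean in Col at 48 h: SID2, EDS1, PAD4, NPR1 and WRKY70. NIMIN1 was highest in Col at 24 h, EDS5 in ref6c at 24 h and PR1 in ref6c at 48 h. For NPR1, NIMIN1 and EDS5 the libraries of the highest group overlapped those of the next in order, so their first place is not settled.

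Marker transcripts of tissues and stages also differed between the genotypes at 48 h. The summed TPM of 5 seed genes (CRA1, CRU3, SESA1, OLEO1 and EM1) was 3300 to 3950 in Col and 18400 to 20100 in ref6c. At 24 h that sum was 4400 to 7670 in Col and 14700 to 28500 in ref6c, where replicate 2 held the most. Without that library the differences at 24 h were 1.09 for PR1 (limma adjusted p = 0.00014) and -0.8 for SID2 (0.00017). The lowest ref6c sum at 24 h, 14700, still lay above the highest Col sum, 7670, so the difference in seed markers remained. CRA1 made up most of the seed sums at 24 and 48 h. CRA1, CRU3, OLEO1 and EM1 had higher means in ref6c at both times. SESA1 went the other way at 24 h, at means of 295 TPM in Col and 224 in ref6c, and stood at 37.7 and 59.0 at 48 h. The sum of 3 green-tissue genes (RBCS1A, LHCB1.3 and LHCB5) was 8750 to 10400 TPM in Col against 4390 to 4990 in ref6c at 48 h, and 2370 to 2470 and 1850 to 2210 at 24 h. RBCS1A made up most of that sum, and the photosystem antenna genes lay further apart at 48 h. LHCB1.3 had means of 2080 TPM in Col and 48.6 in ref6c, and LHCB5 of 397 and 16.4. At 24 h LHCB5 was at 12.3 and 2.09. Of the root hair genes EXPA7 and COBL9, the sum at 48 h was 19.2 to 31.6 TPM in Col against 0 to 1.26 in ref6c, and no read was counted at 24 h in either genotype. The endosperm gene EPR1 stood at 315 to 425 TPM in Col against 738 to 1220 in ref6c at 48 h. SAG12, which marks senescing leaves, was at 0 in all libraries from 6 to 48 h. The part of these differences in the results for PR1, SID2, EDS1, PAD4 and WRKY70 was not tested.

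The genes whose profile was most like that of PR1 were found by the Pearson correlation of log2(TPM + 1) over the 24 libraries, among 15524 genes with a group mean of at least 5 TPM. They were AT3G12320 (r = 0.92), CYP71A25 (0.92), MYB117 (0.91), AT4G37480 (0.91) and GA2 (0.9). The libraries share their times and genotypes, so these values describe likeness of profile. CYP71A25, a cytochrome P450 gene, stood at 2.34 TPM in Col against 8.32 in ref6c at 48 h, and MYB117, a transcription factor gene, at 1.89 and 6.12. GA2, which encodes ent-kaurene synthase of gibberellin synthesis, stood at 4.6 and 8.14. The Col and ref6c means at 48 h were 30.7 and 61.1 TPM for AT3G12320 and 14.1 and 25.7 for AT4G37480. No gene of the 9 pathway lists below was among the 5.

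The rest of the pathway was read from 79 further genes in 9 lists, of which 72 had rows and 48 passed the filter. Of the 48, 10 reached 1 TPM in fewer than 3 ref6c libraries, and 7 in fewer than 3 libraries outside Col at 48 h. The share of all genes called lower was 10.6%, 10.1% and 22.2% at 0, 6 and 24 h, and the shares for each list below, of 1 to 14 genes, are read against these and the shares for either direction. Between the genotypes 11 of the 48 were called at 0 h (2 higher and 9 lower in ref6c), or 22.9%, beside 12.7% of all genes. The counts were 10 at 6 h (4 higher, 6 lower), or 20.8% beside 16%, and 15 at 24 h (5 higher, 10 lower), or 31.2% beside 34.2%. Some of the called genes passed the filter only through groups where they were high, so nothing is read from these shares. They were PDF1.3 and ERF1 at 0 and 6 h, and WRKY53 and SAG101 at 6 h. At 24 h they were ECS1, WRKY46, PAL3 and SAG101. At 0 h the count was 7 without Col replicate 2 and 6 without ref6c replicate 2 or 3. At 48 h 28 were past the threshold, 10 higher and 18 lower, where 56.2% of all genes were.

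**Figure D3:**
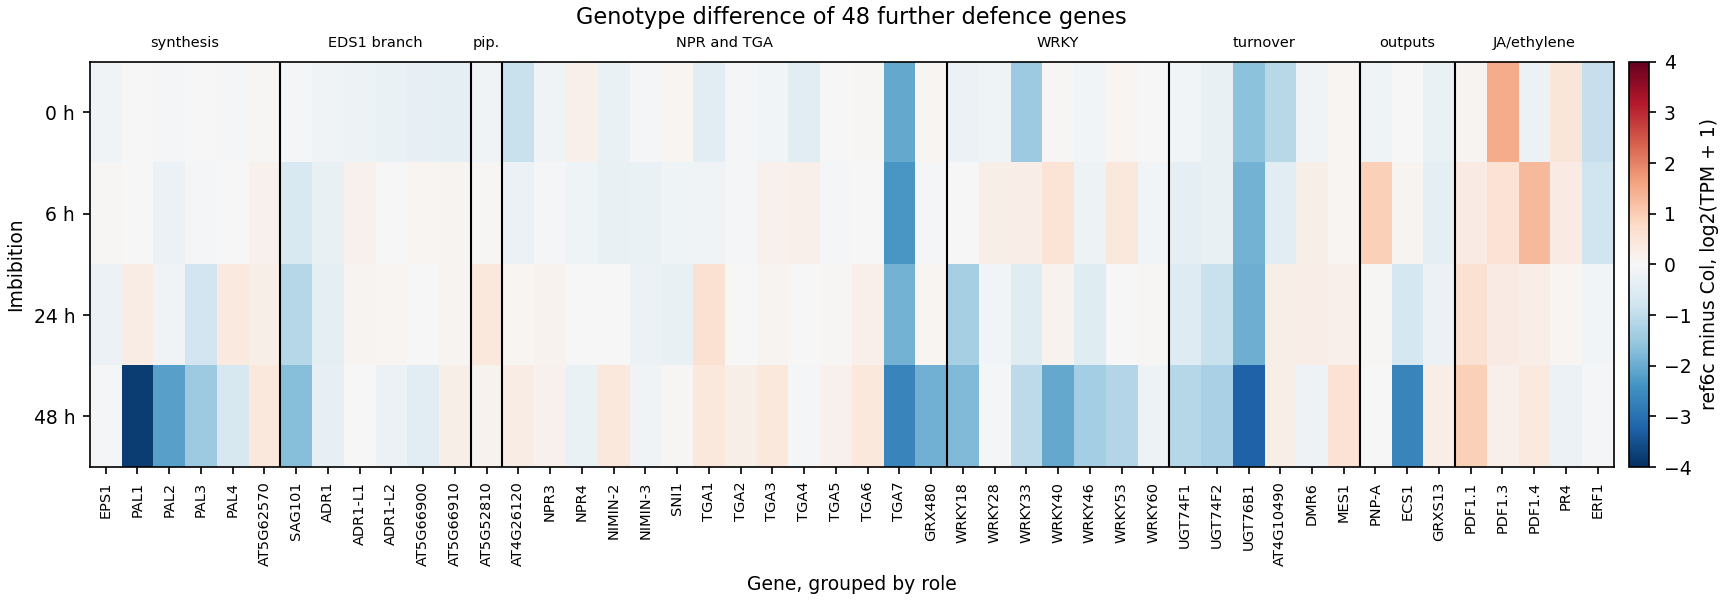
Difference of log2(TPM + 1), ref6c minus Col, for the 48 tested genes of the wider pathway (columns, grouped by role) at 4 times (rows), blue where ref6c was lower and red where it was higher. TGA7 and UGT76B1 are blue in all 4 rows, and PAL1 is lowest at 48 h, at -3.81.

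Among the 14 tested genes of the NPR and TGA list, 4 were lower at 0 h, 1 was lower at 6 h, and at 24 h 1 was higher and 1 lower. The list's shares called were 28.6%, 7.14% and 14.3%, beside 12.7%, 16% and 34.2% of all genes, so the last 2 lay below the background. TGA7 (AT1G77920), a TGA transcription factor, was lower at each of these times. It stood at 5.94, 4.56 and 5.04 TPM in Col against 0.607, 0.567 and 0.334 in ref6c at 0 h (-2.04 ± 0.12, limma adjusted p = 2.1e-11). The means were 12.8 ± 0.75 and 1.77 ± 0.3 TPM after 6 h (-2.32, 1.5e-12), 6.27 ± 0.124 and 0.955 ± 0.256 after 24 h (-1.9, 3.3e-11), and at 48 h 16.7 ± 1.33 and 1.86 ± 0.398. NPR4, a salicylic acid receptor, rose from 0 to 6 h in Col, from 0.545 to 9.45 TPM (2.76 ± 0.12, limma adjusted p = 2.3e-16). The median of all genes rose by 1.235 in that step. In Col TGA1 fell from 134 to 19.1 TPM from 6 to 24 h (-2.76 ± 0.11, limma adjusted p = 7.1e-16).

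In the list of genes that modify or inactivate salicylic acid, 2 of 6 tested were lower at 0 h and 2 at 6 h, and at 24 h 3 were lower and 1 higher. With 33.3%, 33.3% and 66.7% called beside 12.7%, 16% and 34.2% of all genes, the shares rest on 2 to 4 genes. UGT76B1 (AT3G11340), a glucosyltransferase that acts on salicylic acid and related immune signals, was lower at all 3 of these times. Its values at 0 h were 4.3, 3.91 and 3.24 TPM in Col against 0.68, 0.466 and 0.454 in ref6c (-1.65 ± 0.16, adjusted p = 1.3e-07). At 6 h the means were 37.5 ± 6.03 and 9.34 ± 1.39 TPM (-1.89, 7.7e-09), at 24 h 5.91 ± 0.496 and 0.842 ± 0.471 (-1.94, 3.8e-09, limma), and at 48 h 31.7 ± 1.98 and 2.53 ± 0.636. No Col and ref6c library overlapped at any of the 4 times for TGA7 or UGT76B1. These were the 2 of the 48 genes called lower at 0, 6 and 24 h, or 4.17%, beside 1.89% of all tested genes. AT4G10490 was also lower at 0 h, at 5.31 TPM in Col against 1.93 in ref6c (-1.11, 2.9e-07). DMR6, a salicylic acid hydroxylase, fell in Col over both early steps, with means of 15.5, 4.32 and 0.461 TPM at 0, 6 and 24 h (-1.63, 7e-14 and -1.86, 2.8e-14).

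Of the 6 tested partners of EDS1, 0 were higher at these times, and 1 was lower at 0 h, 1 at 6 h and 2 at 24 h, or 16.7%, 16.7% and 33.3%, near the 12.7%, 16% and 34.2% of all genes. SAG101 (AT5G14930), which forms a complex with EDS1, stood at 1.72, 1.15 and 1.44 TPM in Col at 24 h and 0.0894, 0.0868 and 0.136 in ref6c, a log2 difference of -1.14. It reached 1 TPM in Col libraries only, at 24 and 48 h, so it passed the filter through the groups where it was high, and no test of it is read although the counts at 6 and 24 h include it. Its difference at 6 h was -0.62, and at 48 h the means were 3.57 TPM in Col against 0.424 in ref6c. In Col the step from 24 to 48 h was upward and past the threshold for all 6, where 35.5% of all genes rose. SAG101 is among the 6 and passed the filter through these groups, so its call there is not read.

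Among 7 tested WRKY genes 1 was lower at 0 h, 1 higher at 6 h and 2 lower at 24 h, or 14.3%, 14.3% and 28.6% beside 12.7%, 16% and 34.2% of all genes. These shares are near or below the background. WRKY40, WRKY46, WRKY53 and WRKY60 passed the filter only with the Col libraries at 48 h. WRKY53 was the 1 higher at 6 h, and WRKY46 was among the 2 lower at 24 h. Neither call is read, although the counts include them. WRKY18, a WRKY factor of basal defence, stood at 49.8, 36.4 and 37.8 TPM in Col at 24 h and at 17.9, 12 and 17.3 in ref6c (-1.34 ± 0.13, limma adjusted p = 5.7e-08). Its step from 6 to 24 h differed between the genotypes by -1.33 ± 0.19 (2.9e-05), since the means at 6 h were 34.7 and 34.3 TPM.

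Of the 6 tested synthesis genes beside SID2 and EDS5, limma called 0 at 0 h and 0 at 6 h. At an unadjusted p under 0.05 there were 0 at either time, and voom called 1 at 0 h and 0 at 6 h. At 24 h 1 was higher and 1 lower, or 33.3% beside 34.2% of all genes. The lower one, PAL3, reached 1 TPM in Col libraries only, at 24 and 48 h. It passed the filter through groups where it was high, so no test of it is read although the counts include it. In Col 3 were past the threshold upward and 1 downward from 24 to 48 h, beside 35.5% and 28.3% of all genes. PAL1 and PAL3 were among the 3 upward, so nothing is read from that count. PAL1 passed the filter only through Col at 48 h, so its values carry no test. PAL1 (AT2G37040), a phenylalanine ammonia-lyase of the other route to salicylic acid and of phenylpropanoids, stood at 0.518, 0.371 and 0.68 TPM at 24 h in Col and 37.7, 25.8 and 42.8 at 48 h. In ref6c at 48 h it stood at 1.57, 0.78 and 2.61 TPM, below every Col library.

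Of the 3 tested output genes beside PR1, limma called 0 at 0 h, where 2 had an unadjusted p under 0.05 and voom called 1. Of these genes 1 was higher and 1 lower at 6 h, and 1 was lower at 24 h, beside 16% and 34.2% of all genes. ECS1 had Col means of 0.757 TPM at 24 h and 8.32 at 48 h, against 0.53 in ref6c at 48 h. It passed the filter only with the Col libraries at 48 h, so this is given with no test. ECS1 was also the 1 lower at 24 h, and that call is not read. PNP-A was higher in ref6c at 6 h, at 5.35 against 2.32 TPM (0.94 ± 0.08, 1.7e-08, limma). GRXS13, a glutaredoxin, rose from 6 to 24 h in both genotypes, from 2.93 to 25.7 TPM in Col (2.77, 1.6e-16) and from 1.96 to 21.9 in ref6c (2.95, 7.3e-17). Of 4 relatives of PR1, PR2 and PR5, 3 had rows and 0 passed the filter. Of 3 pipecolate pathway genes 1 passed, AT5G52810, which was higher at 24 h (0.42 ± 0.14, adjusted p = 0.023).

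Genes of the jasmonate and ethylene branch, which often opposes salicylic acid, were called for 3 of 5 tested at 0 h and at 6 h, each time 2 higher and 1 lower, and for 1 at 24 h, higher. Beside these, 12.7%, 16% and 34.2% of all genes were called. PDF1.3, a plant defensin, stood at 0.142 TPM in Col against 2.23 in ref6c at 0 h. ERF1, an ethylene response factor, stood at 0.112 TPM in ref6c against 0.974 in Col at 6 h. PDF1.3 reached 1 TPM only in ref6c at 0 h, and ERF1 only in Col at 0 and 6 h. Both passed the filter through groups where they were high and carry no test here. Both are among the genes called at 0 and at 6 h, so nothing is read from the counts at these times. PR4 fell from 6 to 24 h in both genotypes, from 34.3 to 2.21 TPM in Col (-3.48, 2.2e-16) and from 43.7 to 2.39 in ref6c (-3.73, 8.9e-17).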

How the data were processed

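TPM values were deposited as a single table by the authors, with 23826 genes and 24 libraries that each total 1000000. Per the submitters' processing notes the build was TAIR10 and the tools included HISAT2 2.1.10, fastp 0.20.1 and DESeq2 1.26.0, without their roles. The counting program and its strand setting are not given in the sources used here. IDs were matched to the TAIR10.1 RefSeq annotation (23630 matched, 196 did not), which also gave the sequences. A stretch of sequence next to 1 gene is not reported here. TPM times gene span gave whole reads, within 0.001, for 99.975% of 462321 values above 0.

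Values were fitted as log2(TPM + 1) in R 4.3.3 with limma 3.58.1, as 8 group means over 24 libraries with 16 residual degrees of freedom and an intensity trend. The filter was 1 TPM in at least 3 libraries. The 12 comparisons were two-sided, with Benjamini-Hochberg adjustment over all 18481 genes. The fit was tried on simulated counts for the comparison of ref6c with Col at 24 h only. Every group was drawn from the Col means at 24 h, with known changes set in ref6c at 24 h. The steps between times and the interactions were not tried in this way. Python 3.11.15 with pandas 2.3.3, numpy 2.4.6 and matplotlib 3.10.9 made tables and plots. The members and gene lists were chosen with earlier results of these data known, and the lists were written from general knowledge. Beyond the members, named pathway genes were up to 4 per comparison with the smallest adjusted p, and SAG101 at 6 h and AT5G52810 were added after their values were seen. The most alike libraries correlated at 0.9975, and none were merged.

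Settings tried besides were median-of-ratios scaling, a filter at 5 TPM or none, a pseudocount of 0.1, a replicate block, voom on recovered reads, a 2-fold minimum, fits without the trend or with only the groups compared, and fits without each library.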

Additional observations from a re-analysis of the deposited data

Results flagged for a closer look

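In 5 cases the change over a step of imbibition differed between ref6c and Col by a test of the difference itself, with limma across all genes. The step of SID2 from 0 to 6 h differed by 1.21 ± 0.19 on log2(TPM + 1) (adjusted p = 0.00017), and its step from 6 to 24 h by -0.8 ± 0.19 (0.0055). The step of EDS5 from 0 to 6 h differed by 0.83 ± 0.17 (limma adjusted p = 0.0029), and its step from 6 to 24 h by -0.65 ± 0.17 (0.011). The step of PR1 from 6 to 24 h differed by 1.15 ± 0.25 (limma adjusted p = 0.002). With voom on recovered reads 3 of the 5 no longer passed: SID2 from 0 to 6 h (1.14, adjusted p = 0.094), SID2 from 6 to 24 h (-1.11, 0.090) and PR1 from 6 to 24 h (2.46, 0.080). All 3 libraries of each genotype lay at 0 to 3 reads of PR1 at 6 h, and the EDS5 values are uncertain because of the overlapping gene AT4G39040.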

How the results depend on the processing

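Of 216 counts of called genes under other settings 180 stayed within 1.5 times the main count. The 2-fold minimum asked for a difference of at least 1 on log2(TPM + 1), which at low TPM is more than 2-fold in TPM. PR1 and SID2 at 24 h, 2.48- and 2.63-fold apart in TPM, and EDS5 at 6 h, 2.36-fold, fell short of it. Among the 8 members, this minimum left 0 called at 6 h, 0 at 24 h and 2 in the Col step 0 to 6 h. It left 1 in each interaction, and 1, 2 and 1 in the 3 ref6c steps. A 5 TPM filter left 0 at 6 h, 2 at 48 h, 2 and 3 in the first and last Col steps, 1 in the interaction 0 to 6 h and 3 in the ref6c step 0 to 6 h. Median-of-ratios scaling left 1 at 6 h and 3 in the ref6c step 0 to 6 h, voom left 1 at 6 h and 1 in each interaction, and a pseudocount of 0.1 gave 2 at 0 h, with PR1 at -1.09 (adjusted p = 0.027). Among the 48 further genes, 2-fold left 5, 3, 4 and 15 at the 4 times, 18 and 16 in the last 2 Col steps, 25, 18 and 6 in the ref6c steps, and 2 and 1 in the interactions. Fitting only the groups compared left 7 at 0 h, and a 5 TPM filter left 6 at 6 h. In the interaction 6 to 24 h a pseudocount of 0.1 left 4, a 5 TPM filter 5 and voom 5.

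Directions reversed for NPR1 from 0 to 6 h, to -1.07 in Col and -1.09 in ref6c with median-of-ratios scaling and to -1.21 and -1.24 with voom, and for NIMIN1 in ref6c, to -0.17 and -0.59. The median of all genes moved in that step. The voom fit also scaled the libraries by median of ratios, so it was not a separate check of the scaling. Its other differences from the main fit were not tested. Without single libraries, members called ranged from 2 to 7 at 48 h, 1 to 2 at 6 h, 3 to 7 in the Col step 24 to 48 h, 3 to 5 in the ref6c step 0 to 6 h and 1 to 4 in the ref6c step 24 to 48 h. The further genes ranged from 6 to 15 at 0 h and 5 to 12 in the interaction 0 to 6 h. Same-numbered libraries deviated together in 5 of 12 pairs (r over 0.1, range -0.11 to 0.39). Pairs with different numbers ranged from -0.5 to 0.38, and some of them also lay over 0.1. These values do not settle whether such libraries share more than a number. With the replicate block 4 members were called in the ref6c step 0 to 6 h in place of 5 (NIMIN1, 0.49, limma adjusted p = 0.055), and 2 at 24 h as before. Over all genes, 2347 were called at 0 h, 3664 with median-of-ratios scaling and 534 when only those groups were fitted, and 1264 to 6055 without single ref6c libraries. A 2-fold minimum left 256, 393, 858 and 2561 genes at the 4 times. Depth limits EDS1, WRKY70 and PR1, whose values outside their high groups rest on a few reads per library.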
